A study of Mus musculus with 6 samples.

Results

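Endothelial-to-mesenchymal transition (EndMT) was followed at the level of RNA through 10 genes: the transcription factors Snai1, Snai2, Twist1, Twist2, Zeb1 and Zeb2 and the mesenchymal markers Vim, Acta2, Tagln and Cd44. They were chosen by name from textbook knowledge of the process, with earlier results of these data known. Each was read by 1 probe set annotated with that gene symbol alone, so all 10 were measured, out of 19938 genes tested. The cells were lung endothelial cells (lECs) from mice of C57BL/6 background, and all of them had been stably transfected with the plasmid pcDNA3.1/Hygro(-). In the L1CAM group the plasmid carried full-length mouse L1CAM, a cell adhesion molecule of the immunoglobulin superfamily, and in the control group it was empty. All cultures were grown for 4 days to confluence on crosslinked gelatin, in medium with 20% serum, heparin and endothelial growth supplement. Each group had 3 arrays, which the labels call biological replicates of independent experiments. The labels do not say whether a transfected population was a clone or a pool, so the p-values measure the spread between these cultures and not that between separate transfections.

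In EndMT an endothelial cell loses endothelial properties and takes on those of a mesenchymal cell, a change known from heart valve development and from fibrosis. SNAI, TWIST and ZEB proteins are its best known transcription factors: SNAI and ZEB proteins are zinc finger repressors that bind E-box sequences, and TWIST proteins are basic helix-loop-helix factors. TGF-beta and BMP signals induce them, and microRNAs of the miR-200 family hold ZEB1 and ZEB2 down. Vimentin, smooth muscle actin and transgelin mark the mesenchymal or contractile state.

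The transfected gene was high where the labels place it. L1cam read 6.50, 6.77 and 7.31 on the control arrays and 10.49, 10.60 and 10.73 on the L1CAM arrays (log2 expression, here and below the scale of all values). The array medians over all probe sets lay between 6.55 and 6.58, and a probe set below them was not shown to be above background, since no detection calls were used. All 20 defining endothelial genes lay above the median of their array on at least 3 arrays, among them Cdh5 (VE-cadherin) at 13.12 in control and 13.04 in L1CAM cells, though Vwf (von Willebrand factor) at 6.85 and 6.84 was only just above. L1CAM replicate 1 stood apart from the other L1CAM arrays, at a correlation across genes of 0.9948 and 0.9951 with them against 0.9986 between those 2. With control arrays 1, 2 and 3 it correlated at 0.9952, 0.9935 and 0.9938, where the other L1CAM arrays had 0.9878 to 0.9903. Every member is therefore also given without L1CAM replicate 1. Genes are not independent replicates in such a correlation.

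Of the 10 members, Cd44 and Zeb1 were higher in L1CAM cells and 0 were lower, at a limma adjusted p under 0.05. At an unadjusted p under 0.05 the counts were also 2 and 0, where 29.0% of all genes passed, and an ordinary linear model called 0 in either direction. Over all genes tested, 6.85% were called higher, 8.19% lower and 15.0% in either direction. Cd44 rose 2.16-fold and Zeb1 1.20-fold, and the other 8 members were not called, with differences from -0.23 to 0.15. The median difference of the members was 0.02, as was that of all genes, and their median absolute difference was 0.12 against 0.10 for all genes. Members differed in both directions, 5 with a positive and 5 with a negative difference.

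**Figure D1:**
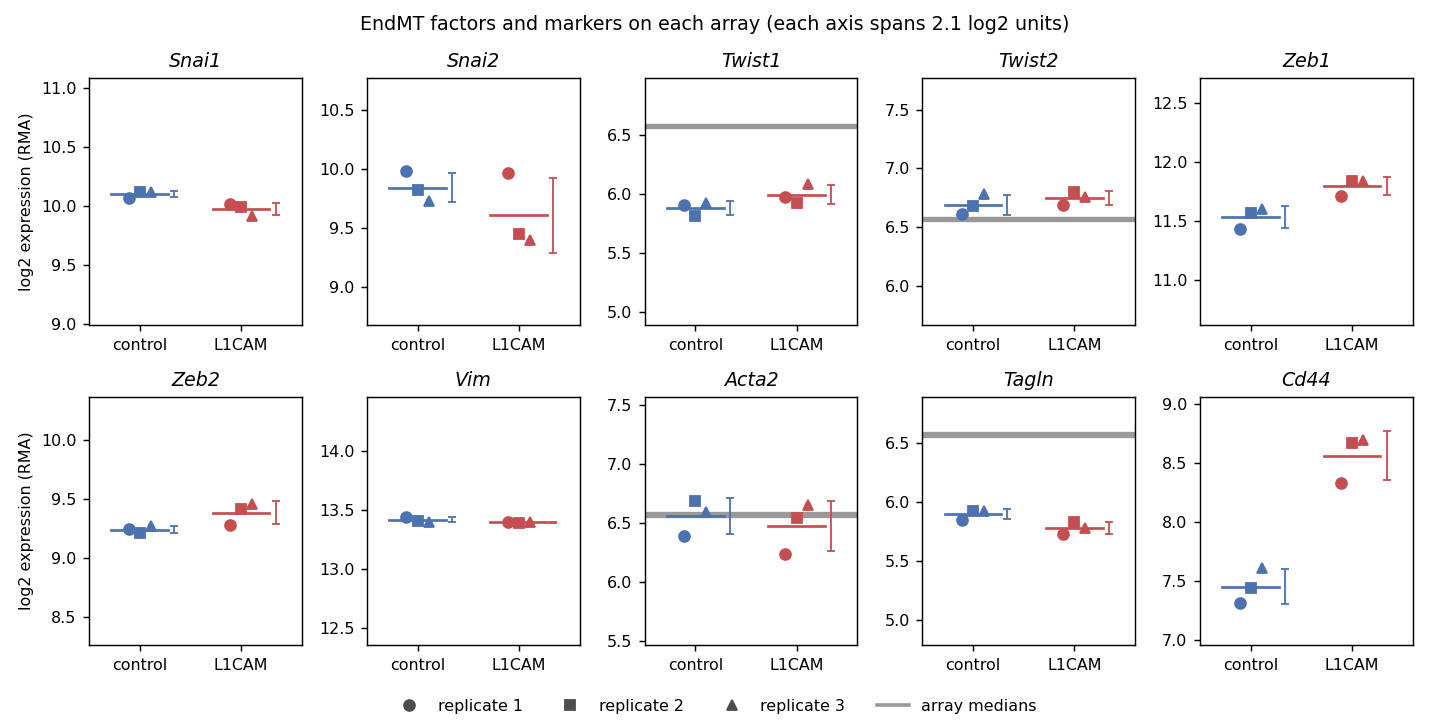
Log2 expression of each member on the 3 control arrays (blue) and 3 L1CAM arrays (red); symbols mark the replicate number, lines the group mean and bars to the right the SD over 3 arrays, and the grey band the array medians (6.55 to 6.58). Cd44 is the member whose groups lie furthest apart (7.32 to 7.61 against 8.33 to 8.70), while Twist1 and Tagln lie below the band on every array.

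Snai1 encodes Snail, which represses E-cadherin in epithelial cells and VE-cadherin in endothelial cells. It read 10.07, 10.12 and 10.12 on the control arrays and 10.02, 9.99 and 9.92 on the L1CAM arrays. The L1CAM arrays were all lower, but the gap between the groups was 0.045 and the difference of -0.12 (SE 0.05) did not pass the test (adjusted p = 0.177; 95% interval -0.25 to 0.00). Without L1CAM replicate 1 it was -0.15 (adjusted p = 0.108). Groups that do not overlap were common on these arrays, at 34.6% of all genes, and 7 of the 10 members had them. Those of Twist1 and Vim were separated only beyond the second decimal.

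Snai2 encodes Slug, the close relative of Snail that acts in neural crest and heart valve development. It read 9.98, 9.82 and 9.73 in control cells and 9.97, 9.45 and 9.40 in L1CAM cells. L1CAM replicate 1 lay among the controls, and the other L1CAM arrays lay below all of them. With all arrays the difference was -0.23 (SE 0.15), with a 95% interval of -0.58 to 0.12 and an adjusted p of 0.367. Without L1CAM replicate 1 it was -0.42 (SE 0.08; adjusted p = 0.00703), and Snai2 was then called lower. In that fit 3 members were called higher and 1 lower, while 12.0% of all genes were called higher and 12.9% lower, 24.8% together.

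SNAI proteins bind the E-box CAGGTG, and Snail is known to act on its own promoter through such a site. The 250 bases before the RefSeq start site of Snai1 are shown because they hold this E-box, on the opposite strand as CACCTG, in capitals, with its first base 126 bases before the start site. They lie at chr2:167537945-167538194 of GRCm38.p6, plus strand.
Snai1: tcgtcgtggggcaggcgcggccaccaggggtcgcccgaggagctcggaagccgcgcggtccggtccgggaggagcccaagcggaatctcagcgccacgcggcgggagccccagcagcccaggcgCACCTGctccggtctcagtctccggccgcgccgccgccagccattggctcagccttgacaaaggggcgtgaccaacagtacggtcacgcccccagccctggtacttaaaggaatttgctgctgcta
CAGGTG, searched on both strands, occurred in 17.2% of all 32817 such windows. Among the members it occurred in 1 of the 10 windows used, that of Snai1. These windows came from 7 members, and Zeb2 had several of them. Windows of Snai2, Zeb1 and Tagln were not searched as members. A match of letters is a description and does not show that a protein binds there.

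Twist1 and Twist2 encode TWIST1 and its relative Dermo-1, known from mesoderm and bone development. Twist1 read 5.90, 5.81 and 5.92 in control cells and 5.97, 5.92 and 6.08 in L1CAM cells, below the array medians throughout. Its difference was 0.11 (95% interval -0.04 to 0.26; adjusted p = 0.301), and since it was not shown to be above background, a change in its RNA could be understated. Twist2 read 6.61, 6.68 and 6.78 in control cells and 6.69, 6.80 and 6.76 in L1CAM cells, just above the medians, and its groups overlapped. Its difference was 0.06 (95% interval -0.09 to 0.20; adjusted p = 0.629). Neither gene was called once L1CAM replicate 1 was left out (adjusted p = 0.258 for Twist1 and 0.428 for Twist2).

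Zeb1, a zinc finger and homeodomain repressor, was higher in L1CAM cells. It read 11.43, 11.57 and 11.60 in control cells and 11.71, 11.84 and 11.84 in L1CAM cells, with every L1CAM array above every control array and L1CAM replicate 1 the lowest of its group. Its mean went from 11.53 ± 0.09 to 11.80 ± 0.08 (SD, n = 3 arrays per group), a difference of 0.26 (SE 0.07). This was 1.20-fold at an adjusted p of 0.0427 (limma). The 95% interval ran from 0.10 to 0.42. The call was close to the threshold: it remained without L1CAM replicate 1 (0.31, adjusted p = 0.0127) but was lost when any other array was left out, at an adjusted p of 0.122, 0.111 and 0.085 for the control arrays in order of their number and of 0.135 and 0.143 for L1CAM replicates 2 and 3. It was also lost when the arrays were quantile normalized again (0.24, adjusted p = 0.0564).

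Zeb2, the paralog of Zeb1 known from neural crest development, read 9.25, 9.21 and 9.27 in control cells and 9.28, 9.42 and 9.46 in L1CAM cells. The L1CAM arrays were all higher, L1CAM replicate 1 by only 0.018 over the highest control array. The difference of 0.15 (SE 0.06; 95% interval 0.00 to 0.29) was not called (adjusted p = 0.173). Without L1CAM replicate 1 it was 0.20 (adjusted p = 0.0381) and called higher. The largest leave-one-out adjusted p of Zeb2 was 0.414.

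The miR-200 family represses both ZEB genes through sites that pair with its seed. The mature 3p strands are printed from RefSeq (GRCm38.p6) with the seed, bases 2 to 8, in capitals, because they fall into 2 seed groups that differ within those bases. AAUACUG is the seed of 3 members and AACACUG that of 2.
mmu-miR-200b-3p: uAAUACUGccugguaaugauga
mmu-miR-200c-3p: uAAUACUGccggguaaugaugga
mmu-miR-429-3p: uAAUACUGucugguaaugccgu
mmu-miR-200a-3p: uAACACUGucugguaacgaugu
mmu-miR-141-3p: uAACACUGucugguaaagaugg
Probe sets for the precursors of 4 of them were on the array, and they do not read the mature strands. Mir200b read 4.39, 4.06 and 4.37 in control cells and 4.30, 4.56 and 4.41 in L1CAM cells, and Mir200c read 5.29, 5.20 and 5.19 against 5.33, 5.25 and 5.35. Mir200a read 5.87, 5.90 and 6.04 against 5.74, 5.71 and 5.93, and Mir141 read 3.84, 3.89 and 3.84 against 3.87, 4.04 and 4.00. All 4 lay below the array medians on all arrays and their groups overlapped. Their differences were 0.15 for Mir200b, 0.08 for Mir200c, -0.14 for Mir200a and 0.12 for Mir141 (adjusted p = 0.423, 0.412, 0.281 and 0.268), so a difference was not detectable from these probe sets.

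Vim encodes vimentin, the intermediate filament protein of mesenchymal and also of endothelial cells. It read 13.44, 13.41 and 13.40 in control cells and 13.40, 13.39 and 13.40 in L1CAM cells. Its difference of -0.02 (SE 0.05) had a 95% interval of -0.14 to 0.09, or 0.911-fold to 1.07-fold (adjusted p = 0.833), and it turned to 0.03 when the arrays were quantile normalized again. Only 0.0366% of all probe sets had a higher mean over the arrays, and whether its signal was near saturation was not tested.

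Acta2, which encodes the actin of vascular smooth muscle and myofibroblasts, read 6.39, 6.69 and 6.59 in control cells and 6.24, 6.54 and 6.65 in L1CAM cells. Its values straddled the array medians and its groups overlapped. The difference was -0.08 (95% interval -0.36 to 0.19; adjusted p = 0.712), and it turned to 0.04 when its lowest array, L1CAM replicate 1, was left out (adjusted p = 0.827). Tagln encodes transgelin, an actin-binding protein of smooth muscle, and lay below the medians on every array. It read 5.85, 5.92 and 5.92 in control cells and 5.73, 5.83 and 5.78 in L1CAM cells, where the L1CAM arrays were all lower. The difference was -0.11 (95% interval -0.24 to 0.02; adjusted p = 0.227), or -0.09 with that array left out (adjusted p = 0.328).

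Cd44 showed the largest difference among the members. It encodes the main cell surface receptor for hyaluronan, a matrix polysaccharide, and is used as a marker of mesenchymal and activated endothelial cells. It read 7.32, 7.44 and 7.61 in control cells and 8.33, 8.67 and 8.70 in L1CAM cells, so the groups were 0.72 apart and L1CAM replicate 1 was the lowest of its group. The mean went from 7.46 ± 0.14 to 8.57 ± 0.21 (SD, n = 3 arrays per group), a difference of 1.11 (SE 0.12). This was 2.16-fold (95% interval 1.79 to 2.60) at an adjusted p of 0.00141 (limma). Without L1CAM replicate 1 the difference was 1.23 (adjusted p = 4.79e-05), and whichever array was left out Cd44 was called, with adjusted p up to 0.0121. An ordinary linear model without moderation gave an adjusted p of 0.0512. Only 1.42% of all genes had a larger absolute difference, and by size Cd44 was number 104 of the 1366 genes called higher. The probe set is annotated with several transcripts of the gene, so splice forms were not told apart. In RNA from whole cultures, more cells with Cd44 and more Cd44 RNA per cell cannot be told apart.

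**Figure D2:**
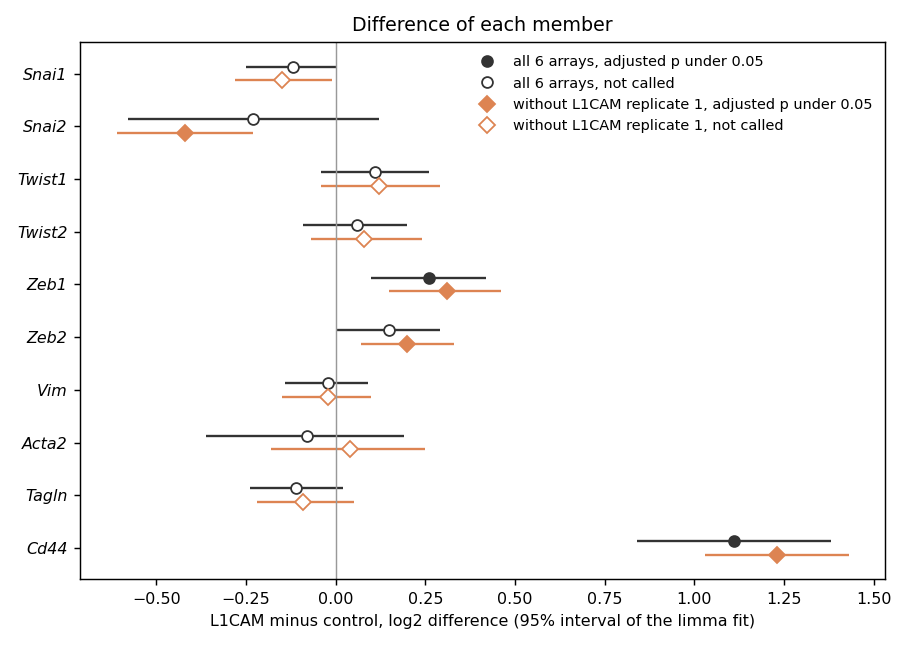
Log2 difference between L1CAM and control cells for each member (points) with its 95% interval from limma (lines), from all 6 arrays (black) and without L1CAM replicate 1 (orange); filled symbols passed an adjusted p of 0.05. Cd44 (1.11) stands alone on the right, Zeb1 is called in both fits, and Snai2 (-0.42) and Zeb2 (0.20) are called only without L1CAM replicate 1.

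The 250 bases before the start site of Cd44 are shown as the upstream sequence of the member that changed most. They lie at chr2:102901666-102901915 of GRCm38.p6, minus strand, and hold neither CAGGTG nor the general E-box CANNTG, which was present in 66.2% of all such windows and in 2 of the 10 windows of the members, those of Snai1 and Acta2. CAGGTG is 1 form of CANNTG. No match says only that these letters are not in this window.
Cd44: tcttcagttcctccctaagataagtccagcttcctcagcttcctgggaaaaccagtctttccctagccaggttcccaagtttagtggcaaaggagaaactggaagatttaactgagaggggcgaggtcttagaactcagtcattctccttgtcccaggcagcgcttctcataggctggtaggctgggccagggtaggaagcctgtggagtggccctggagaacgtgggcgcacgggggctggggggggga

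The place of L1CAM replicate 1 varied among the members. For Cd44 it lay 0.87 above the control mean, against 1.23 for the mean of the other L1CAM arrays, a share of 0.71. The median share over all 2999 called genes was 0.69. For Zeb1 the values were 0.17 and 0.31, and for Zeb2 0.04 and 0.20. For Snai2 they were 0.13 and -0.42, on opposite sides of the control mean.

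**Figure D3:**
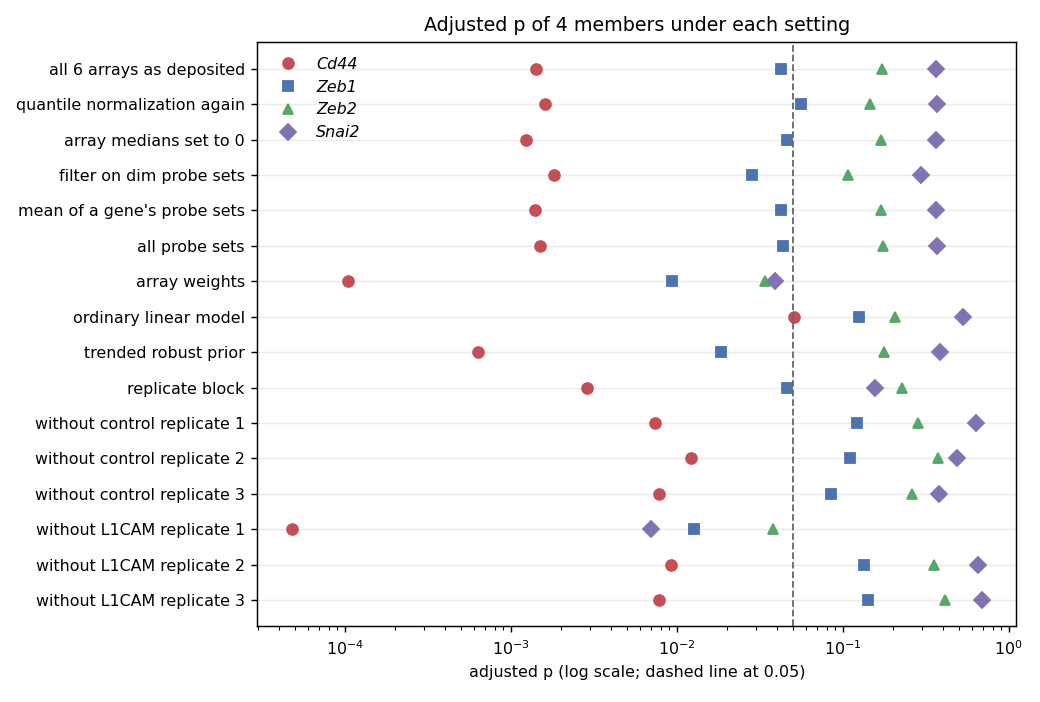
Adjusted p (log axis) of Cd44, Zeb1, Zeb2 and Snai2 under each setting of the analysis, with a dashed line at 0.05. Cd44 lies left of the line except in the ordinary linear model (0.0512), Zeb1 lies close to it on both sides, and Zeb2 and Snai2 pass it only with array weights and without L1CAM replicate 1.

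Profiles like those of the called members were found in genes of other kinds. Likeness was the root mean square difference over the 6 arrays between profiles set to 0 at their control mean. The profile nearest to that of Cd44 was that of Ano1, a calcium-activated chloride channel, at 0.08, followed by P2rx3, an ATP-gated ion channel, at 0.10 and Rhbdf2, an inactive rhomboid protein, at 0.10. The differences of these genes were 1.18, 0.98 and 1.01. For Zeb1 the nearest were Invs, Mir708 and Srp68, each at 0.02, with differences of 0.28, 0.25 and 0.26.

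The genes that act around the members were described with 13 lists, of which 232 of 242 entries and 214 distinct genes outside the members were measured. Of these 214 genes 43 were called, 18 higher and 25 lower, or 20.1% against 15.0% of all genes. These shares were not compared at like expression levels. With dim probe sets filtered out, a larger share of all genes was called, 3421 of 11409. The counts leaned on single arrays: the total was 27, 16 and 16 with control arrays 1, 2 and 3 left out in turn, and 60, 23 and 21 with L1CAM arrays 1, 2 and 3 left out. The number called over all genes also moved in these fits, from 1033 to 4952.

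Other transcription factors known to drive the transition were higher where they were called. Of 19 measured, 5 rose and 0 fell, against 6.85% and 8.19% of all genes, with a list median of 0.11. At an unadjusted p under 0.05, passed by 29.0% of all genes, these counts were 8 and 1, and an ordinary linear model called 0. Klf4, a factor of quiescent endothelium that also takes part in EndMT, read 9.77, 9.93 and 9.96 in control cells and 10.48, 10.75 and 10.78 in L1CAM cells. It rose by 0.78 (adjusted p = 0.0027) and was called whichever array was left out. Runx1, a factor of blood formation from endothelium, rose by 0.75 (adjusted p = 0.0229), the chromatin protein Hmga2 by 0.59 (adjusted p = 0.0479) and the homeobox gene Msx1 by 0.45 (adjusted p = 0.0283). Runx1 and Hmga2 followed L1CAM replicates 2 and 3, with Runx1 at 7.70 in L1CAM replicate 1 against 8.30 and 8.39, and Msx1 was highest in L1CAM replicate 1 at 8.89. These 3 were not called in every leave-one-out fit, in which the list had 1 to 7 called genes. Snai3, the remaining SNAI gene, lay below the array medians and its difference was 0.00 (adjusted p = 0.983).

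Among 22 corepressors, enzymes and ligases of SNAI and ZEB proteins, 3 fell and 0 rose (median 0.01). That was 13.6% called, against 15.0% of all genes in either direction. At an unadjusted p under 0.05, passed by 29.0% of all genes, 7 fell and 2 rose, and an ordinary linear model called 1. Ezh2, the polycomb methyltransferase, abundant in dividing cells, fell by 0.61 (adjusted p = 0.032) and read 10.32 in L1CAM replicate 1 against 9.79 and 9.83. Btrc, the ubiquitin ligase subunit that marks Snail for degradation, fell by 0.32 (adjusted p = 0.00792) with each array left out in turn keeping the call. The deacetylase Hdac1 fell by 0.29 (adjusted p = 0.0229). Ezh2 and Hdac1 did not keep their calls in every leave-one-out fit, with adjusted p up to 0.123 and 0.0925, and the list had 1 to 7 called genes in those fits. The 7 were called without L1CAM replicate 1, 2 higher and 5 lower, in a fit that called 12.0% of all genes higher and 12.9% lower. The histone demethylase Kdm1a, which Snail recruits, was at 0.05 (adjusted p = 0.61). Of 11 TWIST partners and ID proteins 1 rose, Id4, by 0.27 (adjusted p = 0.0241), and the list median was 0.14. That was 9.09% called, against 15.0% of all genes in either direction. Leaving out single arrays gave 0 to 2 called genes.

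TGF-beta and BMP genes moved both ways, 3 of 21 higher and 3 lower, against 6.85% and 8.19% of all genes, with a median of 0.08. With dim probe sets filtered out 2 of 19 were higher and 7 lower, where 1559 of 11409 genes were called higher and 1862 lower. The ligand Tgfb3 read 11.60, 11.89 and 11.85 in control cells and 10.64, 10.57 and 10.45 in L1CAM cells, and was 2.34-fold lower (adjusted p = 0.000465). Tgfbr3, the co-receptor betaglycan, fell by 0.52 (adjusted p = 0.00914) and the BMP receptor Bmpr2 by 0.31 (adjusted p = 0.0191). Bmp2 rose by 0.53 (adjusted p = 0.00363), Smad1, which carries BMP signals, by 0.44 (adjusted p = 0.0122) and Bmp4 by 0.30 (adjusted p = 0.0301). Bmp2 and Bmp4 lay below the array medians on all arrays. Tgfb2, the ligand best known for EndMT in heart cushions, read 8.84, 9.04 and 9.00 against 8.98, 9.50 and 9.49 and was not called (0.36, adjusted p = 0.131). Without L1CAM replicate 1 its difference was 0.54 and it was called (adjusted p = 0.00122). Tgfb3, Tgfbr3 and Bmp2 kept their calls in all leave-one-out fits, and the list had 3 to 9 called genes there.

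Of 24 contractile genes beside Acta2 and Tagln 5 fell and 1 rose, against 8.19% and 6.85% of all genes, at a median of 0.00. With dim probe sets filtered out 6 of 15 fell and 0 rose, where 1862 of 11409 genes were called lower and 1559 higher. Csrp2, a LIM protein of smooth muscle, was 2.03-fold lower (adjusted p = 0.000831), Tes, a focal adhesion protein, fell by 0.64 (adjusted p = 0.00276), smoothelin, Smtn, by 0.58 (adjusted p = 0.00708) and Cnn2, a calponin, by 0.56 (adjusted p = 0.0154). Cnn1, the calponin of smooth muscle, rose by 0.23 (adjusted p = 0.0331) but lay below the array medians on all arrays, as did Des, Myocd and Actg2. Myh11, the smooth muscle myosin, read 6.78 and 6.79 in the groups, just above them. Csrp2, Tes and Smtn kept their calls in all leave-one-out fits.

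Other mesenchymal markers were split, with 4 of 24 higher and 3 lower, against 6.85% and 8.19% of all genes, and a median of 0.06. The collagen receptor Ddr2 read 5.65, 5.73 and 5.64 in control cells and 6.04, 7.14 and 7.34 in L1CAM cells and rose 2.25-fold (adjusted p = 0.0373), mainly on 2 arrays. It lay below the array medians on every control array and on L1CAM replicate 1, so its fold starts from values not shown to be above background. Ccn2, a matrix protein induced by TGF-beta and YAP, rose by 0.87 (adjusted p = 0.00302), Cdh2, N-cadherin, by 0.66 (adjusted p = 0.0145) and Lox, a collagen crosslinking enzyme below the array medians, by 0.24 (adjusted p = 0.0346). The integrin subunit Itgav fell by 0.66 (adjusted p = 0.00082), the membrane protease Mmp14 by 0.52 (adjusted p = 0.002) and Fn1, fibronectin, by 0.49 (adjusted p = 0.0277). Ccn2, Itgav and Mmp14 kept their calls in all leave-one-out fits. The fibrillar collagen genes Col1a1 (7.65 and 7.66), Col1a2 (7.38 and 7.34) and Col3a1 (7.17 and 7.14 in control and L1CAM cells) were not called (adjusted p = 0.924, 0.677 and 0.737).

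Of 22 genes of hyaluronan metabolism and of CD44 ligands, linkers and sheddases, 1 rose and 5 fell (median 0.05). Over all genes these shares were 6.85% and 8.19%. Hmmr, a hyaluronan-binding protein that also acts at the mitotic spindle, read 8.27, 8.92 and 8.69 in control cells and 7.84, 6.59 and 6.61 in L1CAM cells, 3.06-fold lower (adjusted p = 0.0186). Cemip2, a cell surface hyaluronidase, fell by 0.83 (adjusted p = 0.000746), and so did Mmp14, which cleaves CD44. Ezr, ezrin, which links CD44 to actin, fell by 0.44 (adjusted p = 0.0155), and the ligand Lgals9, galectin-9, rose by 0.38 (adjusted p = 0.00965). Has2, the hyaluronan synthase of developing heart, lay below the array medians and was not called (0.20, adjusted p = 0.136). Moesin, Msn, another linker, was at 0.11 (adjusted p = 0.267). Cemip2 and Mmp14 kept their calls in all leave-one-out fits, where 2 to 6 genes of the list were called. Among 15 intermediate filament genes related to Vim, 1 rose, Lmna, by 0.23 (adjusted p = 0.0388), and 1 fell, Lmnb1, by 0.70 (adjusted p = 0.0347). Both encode lamins of the nucleus. Over all genes 6.85% were called higher and 8.19% lower. Leaving out single arrays gave 0 to 3 called genes in this list, and the calls of both lamins were lost whenever an array other than L1CAM replicate 1 was left out.

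Of the 20 defining endothelial genes 2 rose and 5 fell, against 6.85% and 8.19% of all genes, at a median of -0.08. With dim probe sets filtered out 2 rose and 6 fell, where 3421 of 11409 genes were called in either direction. Clec14a, a lectin of the endothelial surface, went from 10.07 ± 0.07 to 8.56 ± 0.62 (SD, n = 3 arrays per group), 2.84-fold lower (adjusted p = 0.0104). The VEGF receptor gene Flt1 fell by 0.82 (adjusted p = 0.0192), Mmrn2 by 0.65 (adjusted p = 0.0104) and the transcription factor Fli1 by 0.52 (adjusted p = 0.0132). Robo4 rose by 0.44 (adjusted p = 0.0112) and Nos3, endothelial nitric oxide synthase, by 0.25 (adjusted p = 0.0442). Cdh5, which Snail represses, was not called (-0.08, adjusted p = 0.368). Leaving out single arrays gave 0 to 8 called genes in this list, with 2 higher and 6 lower without L1CAM replicate 1. That fit called 12.0% of all genes higher and 12.9% lower. Of 20 epithelial genes that SNAI and ZEB factors repress, 1 fell, the tight junction gene Ocln, by 0.48 (adjusted p = 0.00318), and it lay below the array medians in both groups, as did Cdh1, E-cadherin, and Epcam.

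**Figure D4:**
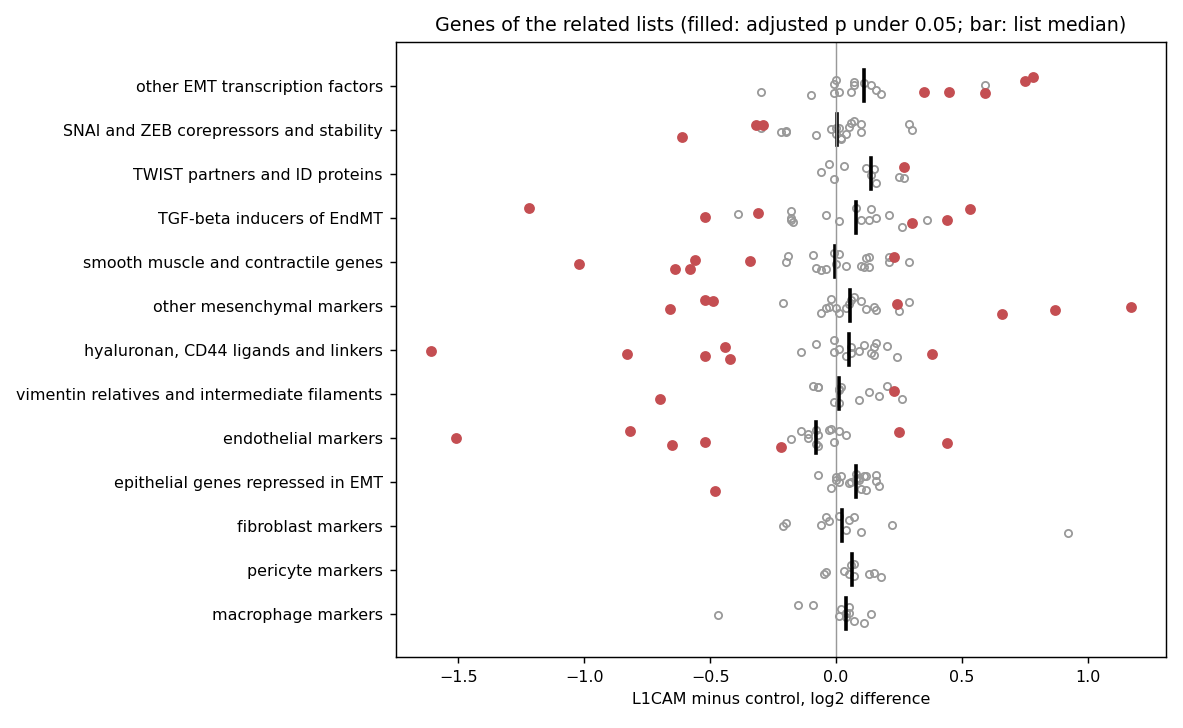
Log2 difference between L1CAM and control cells for every measured gene of the 13 related lists (points; filled red: limma adjusted p under 0.05), with the median of each list as a black bar. List medians lie between -0.08 and 0.14, and called genes stand on both sides of 0 in the TGF-beta, contractile, mesenchymal, hyaluronan, intermediate filament and endothelial lists.

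Of the markers of other cell types, 0 of 12 fibroblast, 0 of 10 pericyte and 0 of 12 macrophage genes passed with limma, and 0 with an ordinary linear model. Over all genes 15.0% passed with limma, and 581 of 19938 with an ordinary linear model. At an unadjusted p under 0.05, passed by 29.0% of all genes, the numbers for these 3 lists were 3, 1 and 0. Of the fibroblast genes Mfap5 was called higher without L1CAM replicate 1 (0.55, adjusted p = 0.0041), without L1CAM replicate 2 (1.18, adjusted p = 0.0455), with array weights (adjusted p = 0.0188) and with the replicate block (adjusted p = 0.0474). The smallest p belonged to Mfap5 (0.92, adjusted p = 0.0676) and Pi16 (-0.20, adjusted p = 0.0844) among fibroblast genes, to Abcc9 (0.18, adjusted p = 0.0883) and Ndufa4l2 (0.13, adjusted p = 0.263) among pericyte genes and to Ptprc (0.14, adjusted p = 0.232) and Cd68 (-0.15, adjusted p = 0.32) among macrophage genes. The mean level of the fibroblast list ran from 5.85 to 5.93 on the control arrays and from 5.91 to 6.00 on the L1CAM arrays, and 5 of its 12 genes lay above the array medians on at least 3 arrays. For pericyte genes the ranges were 6.66 to 6.70 and 6.68 to 6.79 with 4 of 10 above, and for macrophage genes 6.10 to 6.22 and 6.08 to 6.19 with 2 of 12 above, Cd68 and Lyz2. Dcn, Lum, Pdgfrb, Rgs5, Ptprc and Adgre1, named here for their low levels, lay below the medians on all arrays. The group means of the fibroblast genes Col1a1, Col1a2 and Col3a1, given above, lay above the medians.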

How the data were processed

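Each probe set has a log2 value that the authors deposited; per the submitters' processing notes it was made with RMA (background correction, normalization between arrays, summary of probes) by Affymetrix Expression Console 1.1. Further settings and the array's genome build: not given in the sources used here. There are no detection calls. Symbols came from the platform annotation, checked through Entrez identifiers against the GRCm38.p6 RefSeq table (21698 of 21789 single-symbol probe sets matched and 0 symbols changed). A further 1621 probe sets had several symbols and 12102 were not listed. Per gene the probe set with the highest mean was kept, and each member had only 1.

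Differences were fitted over all 19938 genes by limma 3.58.1 (lmFit, eBayes; R 4.3.3) on group alone, two-sided, at a Benjamini-Hochberg adjusted p of 0.05. Differences are L1CAM minus control, folds are 2 to that power, and intervals and SE are those of the moderated fit. The 3 arrays per group limit the precision. Members and lists were chosen with earlier results of these data known. Named genes are all members, L1cam, up to 4 called genes per list and direction or otherwise the 2 with the smallest p, and the 3 most similar profiles of called members. Members of pathways that were not called (such as Kdm1a, Tgfb2, Has2 and Cdh5) were named after their values were seen. The microRNA probe sets were added after the annotation was seen. Sequences came from RefSeq tables of GRCm38.p6, and promoter windows of 7 members were used. The fit was tested on simulated data for this comparison over 19938 genes: true differences of 0.25, 0.5, 1 and 2 were recovered in 2%, 62%, 90% and 98% of 50 genes each. All other genes were left unchanged there. Figures were drawn with matplotlib 3.10.9 and tables made with pandas 2.3.3 and numpy 2.4.6 under Python 3.11.15. The alternatives were other normalizations, a filter on dim probe sets, other choices among probe sets, array weights, other variance priors, a replicate block, and each array left out.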

Additional observations from a re-analysis of the deposited data

How the results depend on the processing

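Under 15 alternatives the members gave 148 differences, of which 134 kept their direction and their side of the threshold. Many of the 148 could not change direction, so this count does not measure robustness. Each member had 1 probe set, so other choices among probe sets left its difference as it was. The filter on dim probe sets, the other variance priors, the ordinary linear model and the replicate block also left it unchanged. These settings could move only its SE and adjusted p. Zeb1 lost its call with quantile normalization again (0.24) and with the ordinary linear model (0.26), as did Cd44 with the latter (1.11). Array weights, which gave L1CAM replicate 1 a weight of 0.323, called Snai2 (-0.36) and Zeb2 (0.19). Vim was 0.03 with quantile normalization again and Acta2 0.04 without L1CAM replicate 1, both not called and both of reversed sign. Causes of these changes were not tested. Leaving out single arrays gave a range of 0.21 to 0.31 for Zeb1, -0.42 to -0.13 for Snai2, 0.11 to 0.20 for Zeb2 and -0.17 to 0.04 for Acta2. The number of members called was 1 with quantile normalization again, 4 with array weights and 0 with the ordinary linear model (4 at an unadjusted p under 0.05), and 1 to 4 with single arrays left out. The ordinary linear model called 581 genes in all and array weights 5191, against 2999, and 1033 to 4952 were called with single arrays left out. For the genes of the lists these numbers were 9, 65 and 43, and 16 to 60. The ordinary linear model had 5123 genes at an unadjusted p under 0.05. The fit with the replicate number as a block called 2067 genes and the same number of members, 2, with Zeb1 at an adjusted p of 0.0464. Deviations of same-numbered arrays from their group means correlated across genes at -0.1, -0.102 and -0.027, with no positive value. With so few arrays per group, these correlations cannot decide whether the numbers pair arrays. The block lowered the SE of Cd44 and Acta2 from 0.12 to 0.07, of Snai2 from 0.15 to 0.09 and of Zeb1 from 0.07 to 0.06. It raised the SE of Snai1 and Vim from 0.05 to 0.06 and of Zeb2 from 0.06 to 0.07. Under the filter for dim probe sets, Twist1 and Tagln were not tested. In the simulation 62% of genes changed by 0.5 were recovered and 2% of those changed by 0.25. It changed only 50 genes of each size, far fewer than the 2999 called here, so its adjusted threshold was stricter. These shares therefore do not give the power for differences of the size of those in Snai1, Zeb2 and Tagln.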

Other observations

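Precursor probe sets of other microRNAs known to act on SNAI and ZEB genes lay below the array medians on all arrays. Mir205 read 4.31, 4.31 and 4.30 in control cells and 4.09, 4.45 and 4.30 in L1CAM cells (-0.03, limma adjusted p = 0.88). Mir34a, whose family targets Snail, read 4.38, 4.34 and 4.24 against 4.10, 4.13 and 4.60 (-0.04, adjusted p = 0.874). Mir34b was at -0.03 (adjusted p = 0.785) and Mir34c at 0.02 (adjusted p = 0.866).

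Mfap5, a microfibril protein from the fibroblast list, was high on L1CAM replicate 1 above all. It read 5.72, 5.57 and 5.55 in control cells and 7.28 in L1CAM replicate 1, against 6.02 and 6.31 on the other L1CAM arrays. With all arrays it was not called (0.92, adjusted p = 0.0676), and without L1CAM replicate 1 its difference was 0.55 (adjusted p = 0.0041).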
